A study of Homo sapiens with 20 samples.

Results

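The genes described here are 10 genes for proteins that the liver makes in bulk or in the fetus. They are ALB, AFP, TTR, TF, GC, AHSG, SERPINA1, RBP4, GPC3 and PON1. They were chosen by name, and every probe whose RefSeq accession leads to one of these symbols was taken, which gave 11 probes of 42405 and 10 genes of 22221 tested. The cells were HepaRG, an established human line from a hepatoma. Its progenitors give rise in culture to a mixture of cells like hepatocytes and cells like bile duct epithelium. RNA was hybridised to 20 single-color Agilent arrays, 4 for each of 5 conditions. The conditions were D4 (progenitors at day 4 after seeding), D15 (day 15), D30 - DMSO (day 30, never exposed to dimethyl sulfoxide), D30 + DMSO (day 30, with 2% DMSO from day 15) and D34 +/- DMSO (DMSO-differentiated cells kept for 4 more days after its removal at day 30). All conditions were the same unmodified line in a medium with serum, insulin and hydrocortisone, and the replicates were independent experiments. The culture is mixed, so fewer hepatocyte-like cells and less RNA per cell cannot be told apart.

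Albumin (ALB), alpha-fetoprotein (AFP) and vitamin D-binding protein (GC) belong to one gene family. AFP is the main plasma protein of the fetal liver and is replaced by albumin around birth, and both genes are under the control of liver-enriched factors such as the C/EBP proteins and the FOXA proteins. Transthyretin (TTR) carries thyroxine and, bound to retinol-binding protein (RBP4), vitamin A. Transferrin (TF) carries iron, fetuin-A (AHSG) binds calcium phosphate, alpha-1-antitrypsin (SERPINA1) inhibits neutrophil elastase, and paraoxonase 1 (PON1) is an esterase of high-density lipoprotein. Glypican-3 (GPC3) is a heparan sulfate proteoglycan of the cell surface that, like AFP, is found in fetal liver and again in hepatocellular carcinoma.

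On an array, between 61.1% and 74.2% of the probes were well above background, and the 75th percentile of the processed signal lay between 407 and 766 intensity units. Levels are given as scaled signals, the processed signal brought to a common 75th percentile of 546 units, and they are compared between conditions and never between probes. The 20 arrays lie on 4 slides, and slide 4 alone was scanned in a second session. That slide holds replicate 4 of every condition, the third replicate of D15 and the third replicate of D30 + DMSO. All 10 genes passed the filter on dim probes. The main probe of each gene was well above background on all 20 arrays, and the second GPC3 probe was so on none. Of the hepatocyte markers, 5 of 8 were well above background on all 4 D4 arrays and 8 of 8 in each later condition, and of 7 biliary markers 5 were so in every condition, while EPCAM and CFTR were so on no array. Leukocyte and stellate cell genes were partly present, with PTPRC and DCN well above background on all 20 arrays and COL1A2 and PDGFRB on none.

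Promoter sequences are shown for ALB and AFP, whose starts lie 31.9 kb apart on chromosome 4 and whose changes differed, and for AHSG, the gene called in both DMSO comparisons. RefSeq promoters of GRCh38.p14 matched 7 of the 10 genes, and TTR, GC and GPC3 are named only. The lines hold the 250 bases before each start on the plus strand, at chr4:73404037-73404286 for ALB, chr4:73435971-73436220 for AFP and chr3:186612810-186613059 for AHSG. Capitals mark the CCAAT box, searched on both strands, and TATAAA, searched on the gene's strand.
ALB: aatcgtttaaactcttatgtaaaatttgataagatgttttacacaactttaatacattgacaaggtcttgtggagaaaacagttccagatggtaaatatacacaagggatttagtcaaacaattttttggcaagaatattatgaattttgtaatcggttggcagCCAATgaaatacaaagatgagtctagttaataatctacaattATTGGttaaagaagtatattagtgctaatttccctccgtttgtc
AFP: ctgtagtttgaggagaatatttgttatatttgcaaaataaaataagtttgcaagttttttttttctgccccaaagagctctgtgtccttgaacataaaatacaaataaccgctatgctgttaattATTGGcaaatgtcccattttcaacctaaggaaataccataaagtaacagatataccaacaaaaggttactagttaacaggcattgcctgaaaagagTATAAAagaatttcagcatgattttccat
AHSG: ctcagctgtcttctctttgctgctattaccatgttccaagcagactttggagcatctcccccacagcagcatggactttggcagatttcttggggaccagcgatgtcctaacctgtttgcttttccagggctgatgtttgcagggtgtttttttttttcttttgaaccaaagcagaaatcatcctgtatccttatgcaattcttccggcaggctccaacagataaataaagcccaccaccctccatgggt
ALB held a CCAAT whose first base lay 86 bases before the start and an ATTGG at 44 bases. AFP held ATTGG at 125 bases and TATAAA at 29, with no shared base. AHSG held none of these letters in the window. Among 35116 promoters, the same 250 bases held the CCAAT box in 32% and TATAAA in 6.8%. A match is a description of the letters and not a binding site.

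From D4 to D15 the plasma proteins rose together, and the fetal markers did not move with them. ALB, TTR, TF, GC, AHSG, SERPINA1, RBP4 and PON1 were all called higher, between 5.1-fold for RBP4 and 51.5-fold for AHSG. AFP and GPC3 were not called. This comparison covers the step from progenitors to committed cells without DMSO. A gene was called at a Benjamini-Hochberg adjusted p below 0.005 in limma and more than 2-fold, and at this step 5.76% of the 22221 genes were called higher and 3.67% lower. The median log2 change was 3.14 over the 10 genes and 0.04 over all genes tested.

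The scaled signal of AHSG was 26.2, 32.8, 22.7 and 42 on the 4 D4 arrays, and 1320, 1510, 1400 and 2080 on the D15 arrays. Every D15 array lay above every D4 array, and the fitted log2 change was 5.69 (SE 0.23, limma adjusted p 3.48e-11). The change was 4.23 with normexp background correction, and AHSG was called under each of the 23 alternatives.

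For TF the D4 arrays gave 1090, 1700, 662 and 2730, and the D15 arrays 47200, 38400, 38700 and 60800. The groups were far apart, with a log2 change of 5.07 (SE 0.32, limma adjusted p 1.82e-09). GC moved by 4.57 (SE 0.29), from 1470 to 5640 at D4 to 60200 to 76200 at D15. PON1 moved by 3.72 (SE 0.3), from 47.2 to 208 at D4 to 1110 to 1630 at D15. Among the 8 plasma proteins the D4 arrays were spread most for these genes, with SDs of 0.87, 0.83 and 0.88 on the log2 scale for TF, GC and PON1, and for each of them replicate 3 was the lowest and replicate 4 the highest array.

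TTR gave 11500, 12600, 8210 and 13900 at D4 and 227000, 175000, 204000 and 233000 at D15, a log2 change of 4.2 (SE 0.19). Its partner RBP4 gave 32800, 41700, 33000 and 48600 at D4 and 193000, 166000, 224000 and 207000 at D15, a log2 change of 2.35 (SE 0.17). The proteins circulate as a complex, and on these arrays both genes rose with no overlap between the conditions.

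ALB was already bright in the progenitors, at 48100, 115000, 51700 and 90200 on the D4 arrays, and reached 427000, 301000, 481000 and 458000 at D15. No arrays overlapped, and the log2 change was 2.52 (SE 0.24, limma adjusted p 3.03e-07), which is 5.75-fold. SERPINA1 rose by 2.56 (SE 0.24), from 18200 to 55300 at D4 to 139000 to 203000 at D15. In the methods' t-test, adjusted with Benjamini-Hochberg, ALB and SERPINA1 had adjusted p of 0.00535 and 0.00623 and were not called, which left 6 of the 10 genes.

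AFP was near its D15 level in the progenitors. The D4 arrays gave 464, 551, 502 and 332, and the D15 arrays 546, 605, 489 and 455, so that the groups overlapped. The log2 change was 0.2 (SE 0.2, 95% interval -0.22 to 0.61, limma adjusted p 0.574), and it was -0.18 without scaling between arrays. With the slide and the session as blocks it was 0.32 and 0.31 (limma adjusted p 0.0592 and 0.0538). GPC3 gave 527, 473, 714 and 152 at D4 and 834, 583, 437 and 214 at D15. Its log2 change was 0.19, with a wide 95% interval of -1.02 to 1.39. With the same blocks the GPC3 change was 0.49 and 0.56 (limma adjusted p 0.132 and 0.083).

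**Figure D1:**
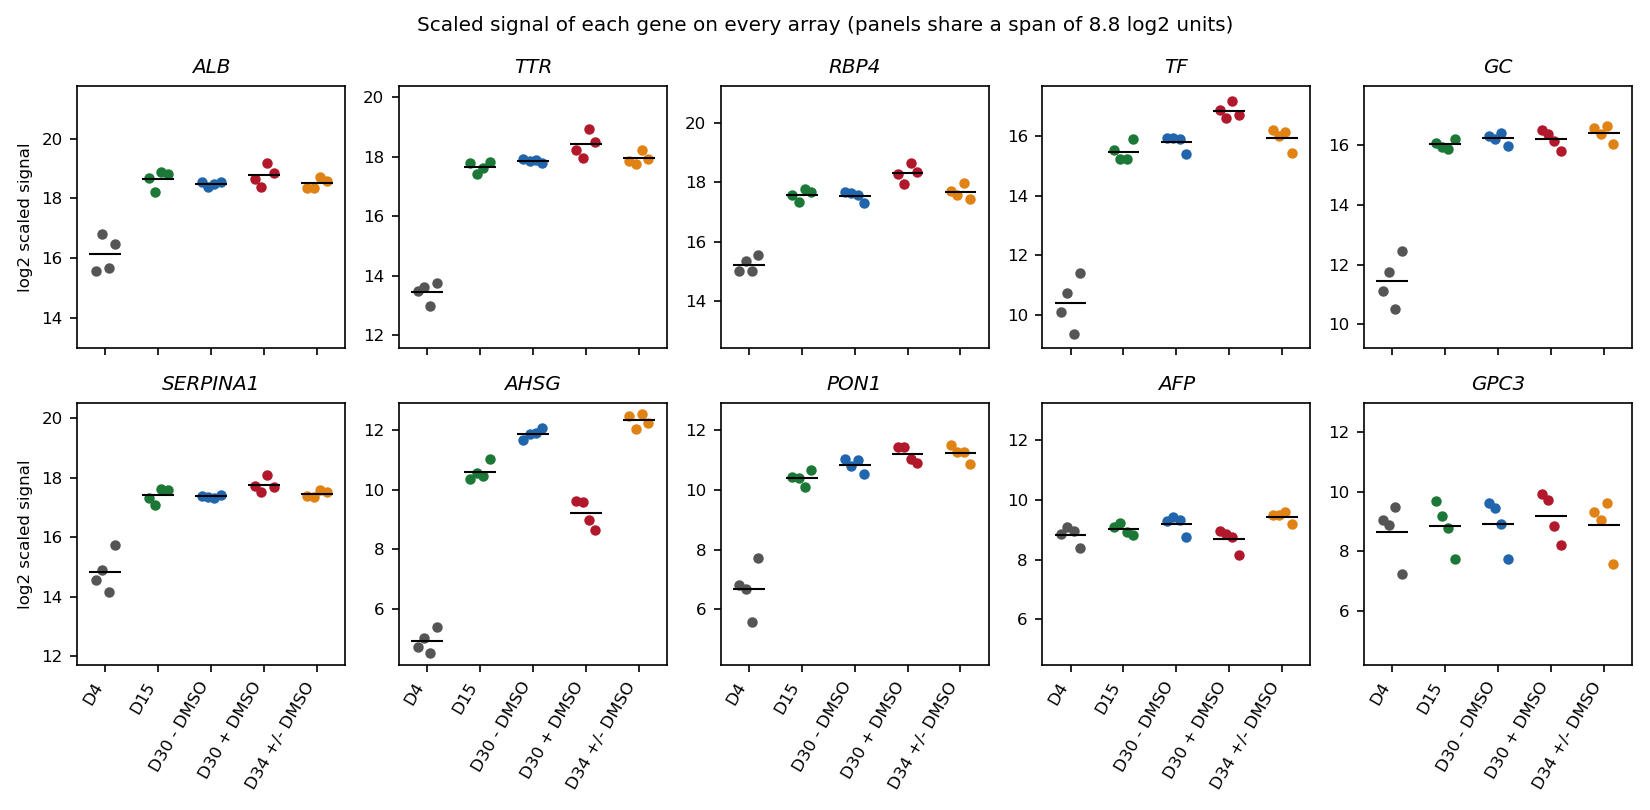
Scaled signal on the log2 scale (vertical axis) of each gene on every array, by condition (horizontal axis), with 1 point per array and a bar at the mean of 4. The panels share a span and not a level, and 8 of the 10 genes stand higher on all later arrays than at D4, while AHSG drops at D30 + DMSO and AFP and GPC3 stay within narrow or overlapping ranges.

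The wider list of secreted liver proteins moved in the same direction at this step. Of 32 other plasma carrier and secreted proteins, 30 were called higher and 0 lower, with a median log2 change of 3.05, and IGFALS and LCAT were not called. KNG1, a precursor of kinins, rose 160-fold, afamin (AFM), a vitamin E carrier, 134-fold with 3 of 4 D4 arrays well above background, and antithrombin (SERPINC1) 89.2-fold. Of 17 regulators of albumin and AFP transcription, 9 were called higher and 0 lower. ONECUT1 rose 16.8-fold, PROX1 10.3-fold with 2 of 4 D4 arrays well above background, and CEBPA 6.45-fold. ZHX2 and ZBTB20, named like the transferrin receptors for their roles and known as repressors of AFP in the mouse liver, were not called, at log2 changes of 0.12 (SE 0.18) and 1.16 (SE 0.33, adjusted p 0.0143). With the slide as a block ZBTB20 was called, at 1.36 (limma adjusted p 0.000461), and DBP lost its call at 0.93, which left the count of regulators at 9.

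Among 10 tested genes of fetal and oncofetal liver, 2 were called higher and 2 lower from D4 to D15, so that the list had no common direction. CYP3A7, the fetal CYP3A enzyme, rose 5.53-fold and the trypsin inhibitor SPINK1 3.31-fold. H19, an imprinted noncoding RNA, fell by 1.66 on the log2 scale and LIN28B, which blocks let-7 maturation, by 1.25. The 8 hepatocyte markers were all called higher at the same step, with TDO2 at 51.4-fold, ASGR1 at 49.9-fold and ARG1, well above background on no D4 array, at least 128-fold, measured against the lowest signal well above background. The summed scaled signal of the hepatocyte markers lay between 1790 and 4690 at D4 and between 52100 and 91600 at D15, and without APOA1, the brightest of them, between 1240 and 1930 and between 20100 and 30800. The 5 proliferation markers were all called lower, with sums between 8590 and 12400 at D4 and between 745 and 1770 at D15. Of 5 tested biliary markers, SPP1 alone was called (3.24-fold higher), and COL1A1 alone of 4 stellate cell and fibroblast genes (log2 change -1.91), where the slide as a block added ACTA2 (-1.02). The sum of 4 macrophage and leukocyte genes was between 1670 and 2330 at D4 and between 3410 and 3880 at D15, with CD68 called 2.66-fold higher and CD163 called but not well above background in either condition. Of 5 endothelial markers, 2 were tested and 0 called in any of the 5 comparisons in limma, with sums between 209 and 788. The part of these marker genes and of proliferation in the rise of the plasma proteins was not tested.

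Of the genes that serve the carriers, 17 were tested and 5 were called higher and 1 lower. The receptors that clear desialylated plasma proteins, ASGR1 and ASGR2, rose 49.9-fold and 6.47-fold. DIO1, which activates thyroxine, rose at least 4.1-fold, with no D4 array and 3 of 4 D15 arrays well above background. VDR, the receptor for the vitamin D that GC carries, fell by 1.5 on the log2 scale (SE 0.17). The transferrin receptors TFRC and TFR2 were not called, at -0.37 (SE 0.26) and -0.01 (SE 0.34). Of 7 tested glypican and heparan sulfate genes, GPC5 was called 2.14-fold higher, with 1 D4 array and 3 D15 arrays well above background. GPC1 was called lower, by 1.24 on the log2 scale. SULF1 passed the p threshold and not the 2-fold limit, at 0.99 (limma adjusted p 1.62e-05). With the slide as a block SULF1 was called, at 1.06 (limma adjusted p 3.4e-06).

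The order of the genes on the chromosomes sets these changes side by side. In the RefSeq order of protein-coding genes, AFP lies between ALB and AFM, and AHSG is followed by FETUB, HRG and KNG1, which code for related plasma proteins. These neighbours were picked after values of these data were known. From D4 to D15 the log2 change was 2.52 for ALB, 0.2 for AFP and 7.07 (SE 0.48) for AFM, while ANKRD17 before ALB and RASSF6 after AFM were not called, at 0.46 (SE 0.17) and 0.15 (SE 0.28). AFP was thus the one gene of the run of 3 that was not called. In the other run, FETUB rose by 1.75 (SE 0.35), HRG by 6.15 (SE 0.38) and KNG1 by 7.32 (SE 0.47), and DNAJB11 before AHSG was not called at -0.07 (SE 0.15).

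**Figure D2:**
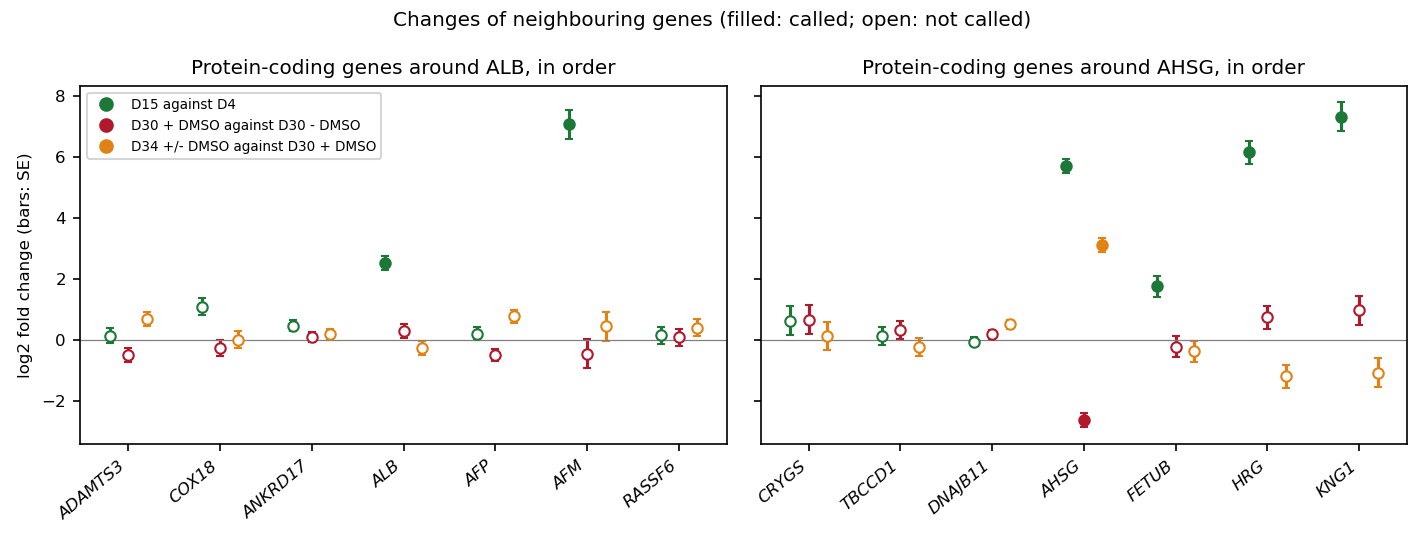
Fitted log2 fold change (vertical axis, bars are the SE) of the protein-coding genes around ALB and around AHSG, in chromosome order (horizontal axis), for 3 comparisons in colors. Filled points were called: at D15 ALB, AFM, AHSG, FETUB, HRG and KNG1, and with DMSO addition (-2.65) and removal (3.1) AHSG alone.

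From D15 to D30 - DMSO, further culture without DMSO, 0 of the 10 genes were called in limma. At this step 0.0045% of all genes, which is 1 gene, were called higher and 0% lower, which leaves little to set the count against. With an unadjusted p below 0.05, 1 of the 10 genes and 665 of all genes remained, and the methods' t-test also called 0 of the 10. That gene was AHSG, at 3240, 3760, 3800 and 4290 on the D30 - DMSO arrays, above all D15 arrays, with a log2 change of 1.28 (SE 0.23, limma adjusted p 0.0542). The adjusted p ranged from 0.00618 with normexp to 0.386 in the methods' t-test. ALB was level at 382000, 346000, 365000 and 389000, a log2 difference of -0.15 (95% interval -0.66 to 0.36). No gene of the 5 other lists on plasma proteins, regulators, fetal genes, glypicans and receptors was called.

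With DMSO most of these genes differed by less than 2-fold, and AHSG fell. This comparison, D30 + DMSO against D30 - DMSO, asks what the solvent changed over the same days of culture. AHSG fell by 2.65 on the log2 scale, which is 6.3-fold, and the other 9 genes were not called. At this step 1.71% of all genes were called higher and 4.15% lower. The median log2 change was 0.32 over the 10 genes and 0.04 over all genes.

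AHSG gave 794, 775, 507 and 405 on the D30 + DMSO arrays against 3240, 3760, 3800 and 4290 without DMSO. The groups did not overlap (SE 0.23, limma adjusted p 2.47e-07), and all D30 + DMSO arrays also lay below the D15 arrays. Within the slides that held both conditions, the log2 difference was -3.24 and -2.05. Without the 7 arrays of slide 4 it was -2.19 and still called.

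TF was higher on every array with DMSO and was not called. The D30 + DMSO arrays gave 121000, 100000, 150000 and 108000, all above the D30 - DMSO arrays at 63500, 63500, 61200 and 43600. The log2 difference was 1.05 (SE 0.32, limma adjusted p 0.0264), and it was 0.82 with an adjusted p of 0.117 without scaling between arrays. RBP4 gave 318000, 253000, 411000 and 332000 against 208000, 202000, 197000 and 161000, again without overlap. Its log2 difference of 0.76 (SE 0.17, limma adjusted p 0.00374) passed the p threshold and not the 2-fold limit. TTR gave 307000, 257000, 503000 and 372000 against 250000, 238000, 243000 and 224000, with a log2 difference of 0.55 (SE 0.19, adjusted p 0.0559). For TF, RBP4 and TTR, replicate 3 of D30 + DMSO was the highest array, and without the arrays of slide 4 the log2 differences were 0.81, 0.49 and 0.21.

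ALB gave 415000, 339000, 600000 and 478000 with DMSO against 382000, 346000, 365000 and 389000 without. The groups overlapped, and the log2 difference of 0.28 had a 95% interval of -0.24 to 0.79. SERPINA1, GC and PON1 had log2 differences of 0.38 (SE 0.24), -0.02 (SE 0.29) and 0.36 (SE 0.3) and were not called, although every D30 + DMSO array of SERPINA1 lay above the D30 - DMSO arrays. The 75th percentile of the D30 + DMSO arrays lay between 453 and 518, against 530 to 632 for D30 - DMSO, so that the scaling raised the D30 + DMSO values relative to those of D30 - DMSO. On the unscaled signal the ALB difference was 0.05.

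AFP gave 497, 468, 428 and 283 with DMSO and 621, 682, 638 and 429 without. The lowest array of each condition was replicate 4, and the groups overlapped only through its value of 429 without DMSO. The log2 difference was -0.51 (SE 0.2, limma adjusted p 0.0883). With the replicate number as a block it was again -0.51, with a limma adjusted p of 0.00226. The slide and the session as blocks each gave -0.4 (limma adjusted p 0.0323 and 0.019). All of these lay under the 2-fold limit. GPC3 gave 977, 846, 458 and 299 with DMSO and 780, 706, 481 and 214 without, a log2 difference of 0.25 (95% interval -0.96 to 1.45).

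**Figure D3:**
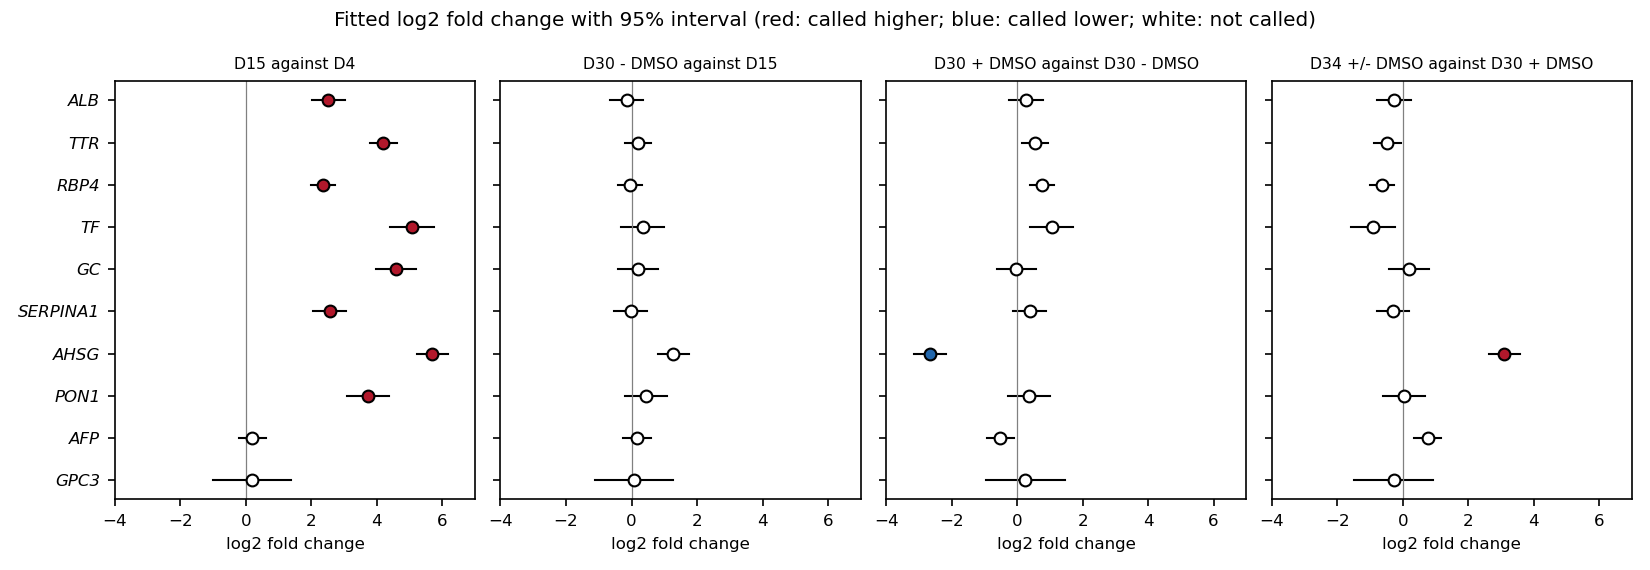
Fitted log2 fold change (horizontal axis) with its 95% interval for the 10 genes (vertical axis) in 4 comparisons, first condition minus second. The 8 genes called at D15 lie between 2.35 and 5.69, and only AHSG is called in the 2 DMSO comparisons, lower at -2.65 with DMSO and higher at 3.1 after its removal.

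AHSG was not alone among secreted proteins in falling with DMSO. Of the 32 other plasma proteins, 3 were called higher and 5 lower. ITIH3, an inter-alpha-trypsin inhibitor heavy chain, fell by 2.9 on the log2 scale (SE 0.46) with 3 of 4 D30 + DMSO arrays well above background, A1BG by 2.38 (SE 0.41) and the protease inhibitor A2M by 2.2 (SE 0.31). CP and CPN1 were also called lower, and SERPIND1, VTN and AMBP higher. Of the 17 regulators 0 were called in limma, and among them FOXA3, picked after its values were seen, had the log2 difference -0.87 (SE 0.18, adjusted p 0.00216), under the 2-fold limit. Among the fetal genes, CYP3A7 rose 7.58-fold and PEG10 by 1.99 on the log2 scale, while SPINK1 fell by 3.8 and H19 by 3.12. Of the receptors and partners, ferritin light chain (FTL) rose 2.51-fold and VDR fell by 1.35 on the log2 scale. GPC5 rose 2.27-fold, with 2 of 4 D30 - DMSO arrays well above background, and GPC6 fell by 1.12.

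The cell type markers did not all move one way between these conditions. The summed signal of the hepatocyte markers lay between 140000 and 170000 with DMSO and between 93100 and 97300 without, but 0 of the 8 were called in limma and the gap lay in 1 bright probe. Without APOA1 the sums overlapped, between 22800 and 48100 with DMSO and between 26300 and 41000 without. APOA1 had a log2 difference of 1.03 (SE 0.37), CPS1 one of -1.49 (SE 0.5, adjusted p 0.0454) and TDO2 one of -0.01. Of the biliary markers, SOX9 was called 2.48-fold higher and SPP1 3.43-fold lower. DCN, a stellate cell and fibroblast gene, was called 7.86-fold lower, and the sum of the 4 tested genes of that list was between 1170 and 2010 with DMSO and between 4070 and 9170 without. The part of these in the fall of AHSG was not tested. In the run of genes after AHSG, FETUB, HRG and KNG1 were not called, at -0.23 (SE 0.35), 0.73 (SE 0.38) and 0.96 (SE 0.47).

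In the 4 days after DMSO was removed, AHSG rose above its level with DMSO. The comparison of D34 +/- DMSO with D30 + DMSO uses the same D30 + DMSO arrays as the one before, so both rest on those 4 arrays. AHSG was called higher, 8.6-fold, and the other 9 genes were not called. At this step 4.91% of all genes were called higher and 2.09% lower, and the median log2 change was -0.28 over the 10 genes and -0.07 over all genes.

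AHSG gave 5680, 4220, 5940 and 4850 at D34 +/- DMSO, every array above the D30 + DMSO range, with a log2 change of 3.1 (SE 0.23, limma adjusted p 3.3e-08). The levels of AHSG were thus ordered D4, D30 + DMSO, D15, D30 - DMSO and D34 +/- DMSO, and only the last 2 of these conditions overlapped between arrays.

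AFP gave 722, 721, 771 and 583, above all D30 + DMSO arrays. Its log2 difference of 0.76 (SE 0.2, limma adjusted p 0.00893) missed both limits of the call. On the 2 slides that held both conditions it was 0.63 and 0.74. As blocks, the slide gave 0.64 (limma adjusted p 0.00112), the session 0.65 (0.000433) and the replicate number 0.76 (6.19e-05). With each block AFP thus passed the p threshold and missed only the 2-fold limit. TF gave 75000, 65300, 72000 and 44700, below all D30 + DMSO arrays, with a log2 difference of -0.91 (SE 0.32, adjusted p 0.047). RBP4 differed by -0.64 (SE 0.17, adjusted p 0.011) and TTR by -0.47 (SE 0.19, adjusted p 0.0968), with overlapping arrays. ALB, SERPINA1, GC, PON1 and GPC3 had log2 differences of -0.27, -0.3, 0.2, 0.03 and -0.28, all with overlapping arrays. With the scan session as a block, GPC3 differed by -0.66 (limma adjusted p 0.0483), which missed both limits of the call.

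Of the 32 other plasma proteins, 6 were called higher and 4 lower after removal. ITIH3 rose 8.54-fold, CPN1, the catalytic chain of carboxypeptidase N, 6.03-fold and A1BG 3.74-fold. Of the 17 regulators 0 were called, and FOXA3 had the log2 difference 0.95 (SE 0.18, adjusted p 0.000863), again under the 2-fold limit. With the slide as a block FOXA3 was called, at 1.04 (adjusted p 0.000166). SPINK1 rose 19.6-fold and H19 9.62-fold, while CYP3A7 fell by 3.31 on the log2 scale. The iron exporter SLC40A1 fell by 1.24 on the log2 scale and FTL by 1.28, while VDR rose 2.18-fold. GPC5 was called lower, with 2 of 4 D34 +/- DMSO arrays well above background. The 5 proliferation markers were all called higher, with CDK1 14.4-fold, TOP2A 14.2-fold and BIRC5 7.85-fold higher, and their sum was between 6950 and 18800, against 649 to 1880 at D30 + DMSO. The hepatocyte markers summed to between 83100 and 107000 at D34 +/- DMSO, and to between 32300 and 62600 without APOA1, with 0 of 8 called. DCN rose 7.82-fold, SPP1 rose 4.66-fold and SOX9 fell by 2.09 on the log2 scale, ACTA2 was called with the slide as a block (1.06), and the part of these in the return of AHSG was not tested.

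None of these genes was called between the cells after removal and cells that had never seen DMSO. These 2 conditions also differ by 4 days of culture, so past DMSO and the added days cannot be told apart. In D34 +/- DMSO against D30 - DMSO, 0 of the 10 genes were called in limma and 0 had an unadjusted p below 0.05. The methods' t-test also called 0. Of all genes 1.3% were called higher and 0.212% lower, so a count of 0 among 10 genes is near that share and says little about them. The largest of the 10 log2 differences was that of AHSG, 0.45 (95% interval -0.03 to 0.93), followed by PON1 with 0.39 (95% interval -0.25 to 1.02). For ALB the interval was -0.51 to 0.52 and for AFP -0.16 to 0.67. Of the proliferation markers, 4 of 5 were called higher in the same comparison, among them CDK1 at 9.32-fold, BIRC5 at 7.05-fold and CCNB1 at 5.43-fold, and the slide as a block added TOP2A (3.31), while no gene of the 5 other lists was called.

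Over the 5 conditions together, limma's moderated F-test called the same 8 plasma proteins, against 5.31% of all genes. A call there needed a p below 0.001 after Bonferroni adjustment and condition means that spanned over 3-fold. The fold between the highest and lowest condition was 170 for AHSG, 87.5 for TF, 31.1 for GC, 30.7 for TTR, 23.2 for PON1, 8.42 for RBP4, 7.52 for SERPINA1 and 6.28 for ALB. AFP spanned 1.7-fold and GPC3 1.43-fold, and both had an adjusted p of 1.

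Fetal and adult markers were set against each other by subtracting the log2 signal of ALB from that of AFP or GPC3 on each array, and only changes of this difference have a meaning. AFP minus ALB was -6.7, -7.71, -6.69 and -8.09 at D4 and -9.61, -8.96, -9.94 and -9.98 at D15. The arrays did not overlap, and the difference fell by 2.33. Its terms had moved by 0.2 for AFP and 2.52 for ALB. Its exact permutation p, two-sided, was 0.0286, the smallest that 4 arrays against 4 allow, and 0.114 after Benjamini-Hochberg adjustment over the 8 differences tested. An adjusted p below 0.05 would need most of the 8 differences to reach this smallest p. The adjusted p thus cannot decide about the fall, and this limit holds for each of the 8 differences. With the mean of 7 other plasma proteins in place of ALB the fall was 3.83.

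With DMSO the difference was -9.71, -9.5, -10.45 and -10.72, against -9.27, -8.99, -9.16 and -9.82 without, a change of -0.78 (exact permutation p 0.0857, adjusted 0.171), which was -0.46 without the arrays of slide 4. After removal it was -8.87, -8.85, -9.13 and -9.4, above every D30 + DMSO array, a change of 1.03 (exact permutation p 0.0286, adjusted 0.114). This change was 0.6 within slide 3, 1.19 within slide 4 and 0.65 without the arrays of slide 4, and 0.62 with the mean of the 7 other plasma proteins in place of ALB. On the arrays of slide 4, AFP lay on average 0.27 below its condition means and ALB 0.2 above, and D30 + DMSO has 2 arrays on that slide where D34 +/- DMSO has 1. Between D15 and D30 - DMSO it moved by 0.31 with overlapping arrays. GPC3 minus ALB changed by -2.34 from D4 to D15 (exact permutation p 0.0857, adjusted 0.171), with the D4 array of replicate 4 at -9.21, below the D15 arrays of replicates 1 and 2. Its other changes were 0.23, -0.03 and -0.01.

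**Figure D4:**
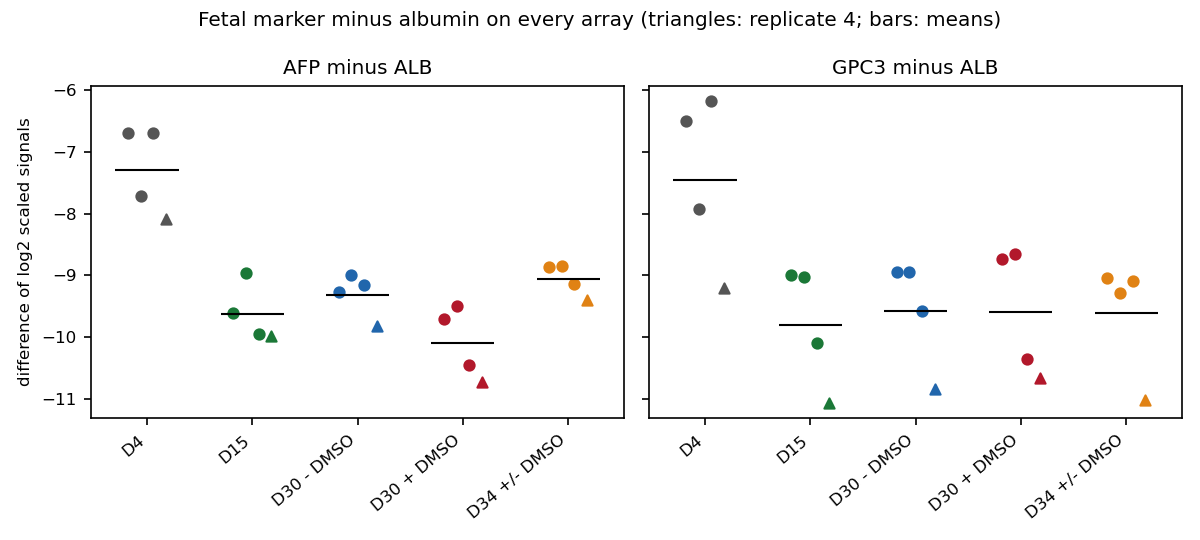
Log2 scaled signal of AFP (left) or GPC3 (right) minus that of ALB (vertical axis) on every array by condition (horizontal axis), with bars at the means and triangles for replicate 4. The AFP arrays at D15 lie between -9.98 and -8.96, below the 4 D4 arrays, and replicate 4 is the lowest array of every condition for GPC3.

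The spread of GPC3 followed the arrays and not the conditions. Replicate 4 gave between 152 and 299 in the 5 conditions, and the 15 other arrays between 437 and 977, with no overlap. Replicate 4 and slide 4 cannot be told apart for these 5 arrays, but the 2 arrays of slide 4 that were replicate 3 gave 437 and 458, and the 13 arrays of the first session 473 or more. The SD within conditions was 0.87 on the log2 scale, above that of 96.2% of the genes tested, against 0.28 for AFP and 0.35 for ALB. One GPC3 spot of D34 +/- DMSO replicate 1 carried the scanner's outlier mark, with a processed signal of 299510 against 719 in the other spot, and was left out. With it, the log2 difference from D30 + DMSO was 1.64 in place of -0.28.

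The brightest probes left some room below saturation. After D4, ALB ranked between 1 and 6 in brightness among 42405 probes on every array, and its median spot signal was between 41.4% and 62.5% of the saturation value, against 7.6% to 18.8% at D4. TTR reached 50.2%, RBP4 45.9% and SERPINA1 28.1%, and no spot of the 10 genes was marked as saturated. Over the 16 arrays after D4, the processed signal of ALB spanned 1.55-fold and that of SERPINA1 1.57-fold, while AHSG, always under 1% of saturation, spanned 17.2-fold. The scaled signal of ALB spanned 1.99-fold over the same arrays, more than the unscaled one, and the 75th percentile used for scaling spanned 1.6-fold. Whether the response of the scanner is linear near these levels was not tested.

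**Figure D5:**
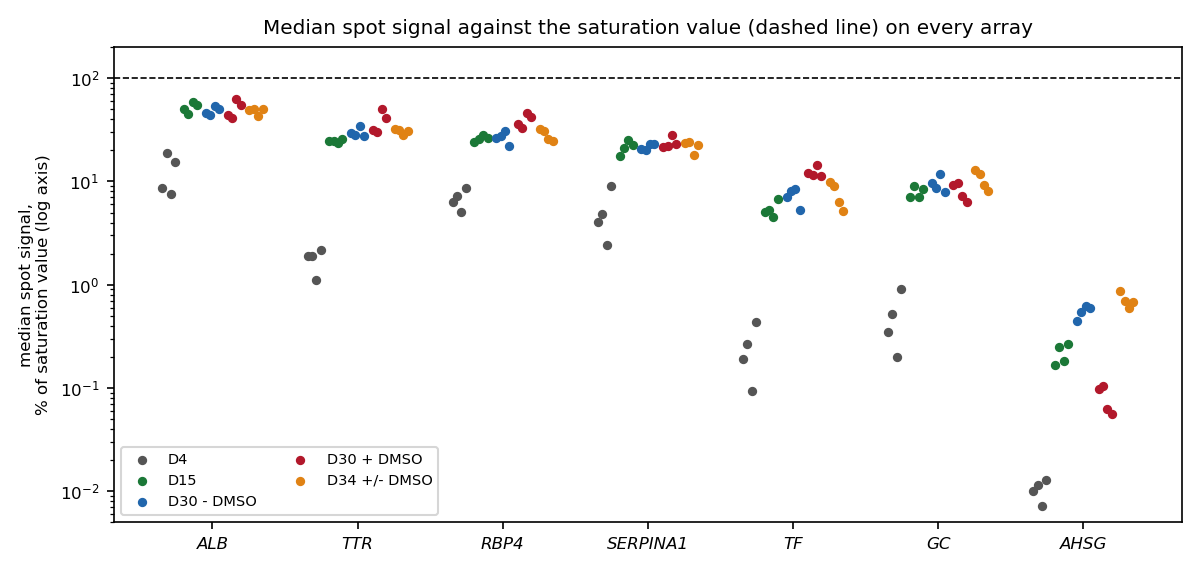
Median spot signal as a percent of the saturation value of each array (vertical axis, log scale, dashed line at 100%) for 7 genes (horizontal axis), with 1 point per array colored by condition. ALB after D4 lies between 41.4% and 62.5% and AHSG reaches at most 0.869%.

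The genes whose profiles over the 20 arrays were most like those of 4 of the genes were found by the root mean square difference of centred log2 signals, among 18320 genes well above background on all arrays. For ALB they were HP (0.131), which carries hemoglobin, SERPINA1 (0.245) and MEX3D (0.261). The condition means of HP stood 2.53, 2.44, 2.56 and 2.44 above D4 in the order of the conditions. After D4 they lay between 18.71 and 18.83 on the log2 scale, and those of ALB between 18.5 and 18.77. Both probes were thus bright, and the part of the scanner's response in their likeness was not tested. For AHSG the closest genes were C8B (0.664) and C8A (0.679), chains of complement component 8, and CYP4A11 (0.725), a fatty acid hydroxylase. Among these candidates no gene lay as close to AHSG, in log2 units, as HP did to ALB. The 2 distances are not on a like scale, since the condition means spanned 7.41 log2 units for AHSG and 2.65 for ALB. Genes not well above background at D4 were also not candidates. C8B fell from 6.79 above its D4 level at D30 - DMSO to 5.55 at D30 + DMSO and stood at 7.41 at D34 +/- DMSO, a smaller swing than that of AHSG.

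For AFP and GPC3 the closest profiles were those of long intergenic RNA probes, named on the array by their hg19 positions. For AFP they were chr3:164924749-165209054 (0.113), chr21:37790605-37795730 (0.182) and chr2:235342486-235379011 (0.184). For GPC3 they were chr6:22144105-22144213 (0.112), chr16:85249449-85584149 (0.148) and chr11:86595627-86610277 (0.148). The GPC3 neighbours were also low on the arrays of the second session, by 0.85, 0.79 and 0.79 below their condition means, where GPC3 was 0.92 below. The AFP neighbours were low there by 0.23, 0.34 and 0.26, beside 0.27 for AFP, and the ALB neighbours HP, SERPINA1 and MEX3D were high by 0.1, 0.24 and 0.25, beside 0.2 for ALB. The likeness of these profiles thus holds a shift between scan sessions, whose part in it was not tested.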

How the data were processed

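RNA from HepaRG cells was hybridised to single-color Agilent arrays, 4 for each of 5 conditions. Per the file headers the authors took each intensity, the processed signal, from Feature Extraction 10.7.1.1 (10.7.3.1 in the submitters' processing notes), with background subtracted and no scaling between arrays. Spot and background median intensities and the scanner marks for background, saturation and outliers were used as deposited. The matrix that the authors deposited beside the scanner files gives log2 values, each against some baseline of its probe, with scale and centring unstated. It served as an alternative. The number of per-sample columns left unused was 0.

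Spots with an outlier mark were left out, spots of a probe were averaged, and each array was brought to the common 75th percentile. Values were floored at 1 before log2. A probe was kept if it was well above background on all 4 arrays of a condition, which left 26538 probes. Each gene was represented by its probe of highest mean, which left 22221 genes. Probes were named from their accessions through lists from RefSeq, and 24826 of 42405 probes had a symbol.

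All 20 arrays entered 1 fit in limma 3.58.1 (R 4.3.3). A call between conditions needed over 2-fold and an adjusted p (Benjamini-Hochberg, all genes) below 0.005. A call by the F-test needed over 3-fold and p below 0.001 (Bonferroni). Differences between AFP or GPC3 and ALB were tested by exact permutation, two-sided. The limma p-values rest on 1 estimate of the spread for each gene, pooled over all 20 arrays and moderated across genes. A condition with a wider spread is thus averaged with the others. The exact permutation p-values rest only on the arrays of the 2 conditions compared. Each condition has 4 arrays, and this number limits the precision. The code was tested on simulated data. The 10 genes and all gene lists were chosen with earlier results of these data known. From each list, up to 3 called genes with the largest change were named in each comparison, with others named for their role. The alternatives were quantile normalization, normexp with an offset of 50, the matrix, other filters and floors, slide, session and replicate number as blocks, fewer arrays, the t-test of the methods and a threshold of 0.05. After the data were seen, outlier spots kept, slide 4 left out, no scaling, a sum of hepatocyte markers without APOA1 and differences from ALB within slides were added.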

Additional observations from a re-analysis of the deposited data

Results flagged for a closer look

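Of the 50 groups of 4 arrays (10 genes in 5 conditions), 1 held an array far from the others, where chance marks about 1 in 20 groups. It was TF in D30 - DMSO, where replicate 4 had a scaled signal of 43600 and the other 3 arrays lay between 61200 and 63500, a gap of 0.901 of the range. This array lies on slide 4. Without it, the log2 difference of TF between D30 + DMSO and D30 - DMSO was 0.92 (limma adjusted p 0.0807) in place of 1.05 (adjusted p 0.0264).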

How the results depend on the processing

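No result on the 10 genes that was called changed direction under any alternative that was run, and the counts of called genes stayed within 1.5 times except 1. With an adjusted p below 0.05, 2 genes in place of 1 were called in D30 + DMSO against D30 - DMSO, as TF joined AHSG. The count at D15 against D4 was between 6 and 8, with 6 in the methods' t-test, and that over the 5 conditions between 6 and 8. With the mean of 7 plasma proteins in place of ALB, AFP changed by -0.57 with DMSO and GPC3 by -3.84 from D4 to D15, and with normexp GPC3 minus ALB changed by -2.36, each now at the smallest exact permutation p of 0.0286. In the 2 DMSO comparisons AHSG was called under every alternative, and without slide 4 its values were -2.19 and 2.73. The causes were not tested.

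Same-numbered arrays of different conditions had correlations of their deviations between -0.309 and 0.794. Their median was 0.256, against -0.157 for arrays with different numbers. Arrays of 1 slide had correlations between 0.114 and 0.794, with a median of 0.377 against -0.167 across slides. Arrays with the same number thus shared some variation. The main fit did not take the replicate numbers as pairs, and they were run as a block. The best partner had the same number for 17 of 20 arrays and the same slide for 16. With the replicate block, 8, 0, 1, 1 and 0 genes were called in the 5 comparisons, as without it, and 7 in place of 8 over the 5 conditions. An alternative probe was not run, since the second GPC3 probe did not pass the filter.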
